A study of Mus musculus with 48 samples.

Results

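The epithelium of bleomycin-injured mouse lung was set against the whole lung of the same animals. The libraries were chosen by their labels: exposure to bleomycin, a treatment of the control type, and batch S135 or S151. This gave 12 of the 48 libraries of the series, an epithelial and a whole lung library from each of 6 of the 24 mice. Mice 148 and 149 belonged to batch S135 and received Vehicle as control treatment, and mice 204, 206, 208R and 225 belonged to batch S151 and received Axum8, so that control treatment and batch cannot be told apart. Mouse 225 was female and the other 5 mice were male. The mice set beside them received saline in place of bleomycin: 146, 152 and 153 with Vehicle in S135, and 207, 221 and 230 with Axum8 in S151. Of these, mice 146 and 230 were female and the other 4 were male. Other bleomycin mice are used below to define or read gene groups. They were 154 and 155 with KIRA8 in S135, and 218, 219, 226R and 228 with 3G9 in S151. In batch S061 they were 20, 32 and 41 with KIRA8, and 17, 31 and 45 with Vehicle. Among them 226R, 20, 32, 17 and 31 were female and the rest male. Ages, the time after bleomycin and the promoter or Cre line behind the ribosome tag are not stated in the labels.

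The lung epithelium lines the airways, where secretory and ciliated cells clear inhaled material, and the alveoli, where flat type 1 cells carry gas exchange and type 2 cells make surfactant and renew the alveolar lining. Bleomycin damages this lining, and repair is followed by inflammation and scarring with matrix from fibroblasts. In a RiboTag mouse the cells of interest alone make an HA-tagged ribosomal subunit, and RNA on tagged ribosomes can be pulled down with an antibody against the tag, so that a cell type is sampled without being sorted. The whole lung adds endothelial, mesenchymal and immune cells to the epithelium.

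The labels describe every library of both compartments as tagged-ribosome RNA obtained by anti-HA immunoprecipitation and sequenced from the 3′ end with the Lexogen QuantSeq Forward kit. What set the whole lung libraries apart in preparation is not given there, and a difference in preparation cannot be told apart from a difference in cells. The count table names genes by Ensembl ID, and 0 of its 42548 IDs matched the gene name table used here. The labelled compartment could therefore not be checked against epithelial, endothelial, mesenchymal or immune marker genes, and genes are described by ID, by level and by groups that other mice of the series define.

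Total counts were 13014527 to 32465809 in the epithelial and 16172873 to 34908999 in the whole lung libraries. Across genes, log2 levels of libraries of the same compartment correlated at r = 0.92 to 0.99 within a batch and at r = 0.81 to 0.84 between batches. Mouse 149 stood apart in 1 respect. Genes seen almost only in S061, another batch of the series (146 genes, chosen after the data were seen), made up 0.0530% of its epithelial and 0.846% of its whole lung counts, against 0.00136% to 0.00563% and 0.00297% to 0.0264% in the other 5 mice. Without mouse 149, 4548 genes were called higher and 4556 lower in epithelium, close to the counts with it given below.

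Epithelium and whole lung of injured mice differed over most of the measured genes. Of 15742 genes tested, 9067 (57.6%) passed an adjusted p of 0.05 in edgeR's quasi-likelihood test with the mouse as a block and Benjamini-Hochberg adjustment. Among them, 4446 (28.2%) were higher and 4621 (29.4%) were lower in epithelium. The counts in both directions were similar and the sizes were not. The median log2 fold change, epithelium over whole lung, was 0.94 among the higher genes and −1.69 among the lower genes, where 1 on the log2 scale is a 2-fold change. At least 2-fold differences were found for 2014 higher genes (12.8%) and 3171 lower genes (20.1%). At least 8-fold differences were found for 15 higher genes (0.0953%) and 998 lower genes (6.34%). The plot of the contrast against level shows the longer lower tail. In bulk RNA, fewer cells of a type and less RNA per cell cannot be told apart.

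The balance of directions rests on how libraries were scaled. Scale factors from the trimmed mean of M values (TMM), computed over bleomycin control and saline libraries together, were 0.724 to 1.04 for bleomycin epithelium and 1.02 to 1.57 for bleomycin whole lung. The calls used TMM factors computed over the bleomycin libraries alone, which are not given here. The higher genes made up 49.0% of the called genes with TMM and 46.1% with DESeq2's size factors. With scaling to library totals alone, 1520 genes were called higher and 7999 lower, a share of 16% higher, and the median of all tested genes moved by −0.64 (log2) from its TMM value of −0.03. Values given as CPM are counts in proportion to the TMM-scaled library total, and folds are relative to the TMM scale. The numbers of genes reaching 1 CPM in a library are an exception and used unscaled library totals.

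**Figure D1:**
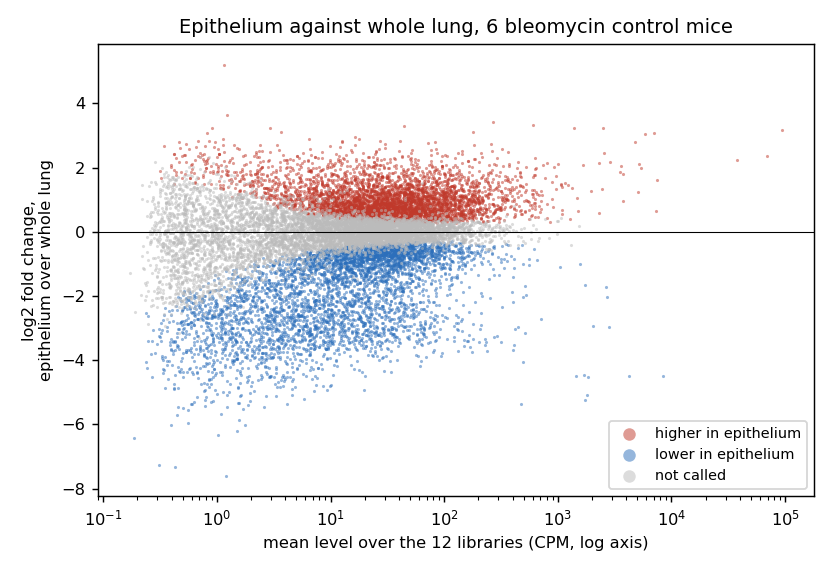
Each point is 1 of 15742 tested genes of the 6 bleomycin control mice, with its mean level over the 12 libraries (CPM, log axis) and its log2 fold change, epithelium over whole lung. Red points were called higher (4446 genes) and blue points lower (4621 genes) at an adjusted p under 0.05 in edgeR. Higher calls gather at high levels and lower calls extend further from 0.

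The direction of the contrast moved with expression level. Among genes averaging over 100 CPM, 807 of 1422 (56.8%) were higher in epithelium and 248 (17.4%) were lower, and the median log2 fold change was 0.51. Among genes at 10 to 100 CPM, 2872 of 8187 (35.1%) were higher against 2388 (29.2%) lower, and the median was 0.08. At 1 to 10 CPM, 699 of 4582 (15.3%) were higher against 1628 (35.5%) lower, and the median was −0.38. Under 1 CPM, 68 of 1551 (4.38%) were higher against 357 (23.0%) lower, and the median was −0.63. Fewer small changes can pass the test at low counts, so the shares called are not comparable between levels in the way the medians are, and a level averaged over both compartments is itself lowered where 1 compartment lacks the gene.

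Epithelial libraries were dominated by fewer genes. Between 12886 and 13287 genes reached 1 CPM of the unscaled total in the epithelial libraries, against 14602 to 14871 in the whole lung libraries, with no overlap. In each mouse this cut lies lower on the TMM scale for whole lung than for epithelium, and the gap on that scale was not counted. The 10 most counted genes of a library took 34.5% ± 6.27 of its counts in epithelium and 17.2% ± 9.92 in whole lung (SD, n = 6 each). The whole lung share was 27.8% and 31.9% in S135 mice 148 and 149 and 10.01% to 12% in the 4 S151 mice, whereas the epithelial share was 38.8% and 43.2% in the S135 mice and 26.9% to 36.7% in the S151 mice. In every mouse the epithelial library had the larger share. The gene with the most counts over all these libraries took 6.01% to 15.7% of epithelial and 1.53% to 4.65% of whole lung counts. In S135 mice 148 and 149 another gene was the largest, with 25% and 25.6% of epithelial and 12.8% and 11.7% of whole lung counts.

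Genes near absence were found mainly on the epithelial side. A mean of at least 1 CPM in whole lung with a mean under 1 CPM in epithelium was seen for 1153 genes, and the reverse for 326 genes. Of the tested genes, 3 had no count in any of the 6 epithelial libraries and 0 had none in the whole lung libraries. Those 3 genes had 79 to 148 counts summed over the whole lung libraries. With a floor of 3 counts over the epithelial group, which covers counting error only, the strongest of them was at least 29.1-fold lower in epithelium.

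Among genes averaging at least 5 CPM in epithelium, with the same sign in all 6 mice, the 2 with the largest excess in injured epithelium varied widely between mice. Of the 15 genes at least 8-fold higher, 9 met these conditions. The 12 leading higher genes that met them had log2 fold changes of 2.89 to 3.41, with a largest adjusted p of 0.00413 in edgeR. The first is ENSMUSG00000076258. It had 121 and 75.5 CPM in epithelium of S135 mice 148 and 149, and 284, 459, 1397 and 560 CPM in epithelium of S151 mice 204, 206, 208R and 225. Whole lung of the same mice had 24.6 and 16.1 CPM in S135, and 11.1, 6.03, 96.9 and 207 CPM in S151. Epithelium was higher in each of the 6 mice, although the compartments' ranges overlapped, because whole lung of mice 208R and 225 exceeded epithelium of mouse 149. The means were 483 ± 486 CPM in epithelium and 60.3 ± 79.3 CPM in whole lung (SD, n = 6 each), and the log2 fold change was 3.41 ± 0.60 (SE, adjusted p = 0.000614, edgeR). In the saline mice it was 2.38 ± 0.80 (SE, adjusted p = 0.0313, edgeR), and 5 of the 6 had the higher value in epithelium. The exception was saline mouse 221, with 1752 CPM in epithelium and 2308 CPM in whole lung, where the other 5 saline mice had 22.7 to 52.7 CPM in whole lung.

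The second, ENSMUSG00000098973, had a similar pattern at lower levels. Epithelium had 8.25 and 13.7 CPM in mice 148 and 149, and 45.9, 86.3, 227 and 102 CPM in mice 204, 206, 208R and 225. Whole lung had 3.61 and 6.04 CPM in mice 148 and 149, and 1.62, 0.817, 12.3 and 26.8 CPM in the 4 S151 mice. Its highest epithelial value, as for ENSMUSG00000076258, was in mouse 208R and its highest whole lung value in mouse 225. Some other leading higher genes varied alike between mice. Among them was the gene with the largest share of the S135 libraries. Its log2 difference was 5.63 in mouse 206 and 1.45 in mouse 148, and 5.30 and 0.16 in saline mice 207 and 221. Not all did, and another leading gene stayed at 2.83 to 3.94 in bleomycin mice. What the alike genes share was not tested. The log2 fold change of ENSMUSG00000098973 was 3.31 ± 0.74 (SE, adjusted p = 0.00281, edgeR), with 4.30 within S151 (adjusted p = 0.00185) and 1.12 within S135 (adjusted p = 0.0515), so that the call did not hold in S135 alone. It was also lost without a filter on low counts (adjusted p = 0.0565). In saline mice the log2 fold change of 1.80 ± 0.999 (SE, adjusted p = 0.157, edgeR) was not called, with log2 differences of −0.04 in mouse 153 and −0.07 in mouse 221. The contrast was not called different between bleomycin and saline mice for ENSMUSG00000098973 (0.56, adjusted p = 0.952, edgeR). Nor was it for ENSMUSG00000076258 (0.47, adjusted p = 0.958, edgeR).

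The 12 leading lower genes had log2 fold changes of −5.45 to −4.92, with a largest adjusted p of 0.000371 in edgeR, and the 2 described here did not overlap between compartments. ENSMUSG00000102813 was close to absent from epithelium, with 0 counts in mice 148, 149 and 206, 8 in mouse 204, 3 in mouse 208R and 9 in mouse 225. In whole lung it had 7.70, 3.69, 6.49, 4.07, 4.73 and 4.06 CPM in mice 148, 149, 204, 206, 208R and 225. The means were 0.104 ± 0.128 CPM in epithelium and 5.12 ± 1.61 CPM in whole lung (SD, n = 6 each), and the log2 fold change was −5.45 ± 0.66 (SE, adjusted p = 4.49e-05, edgeR). In saline mice it did not pass the filter on low counts, with means of 0.186 CPM in epithelium and 0.770 CPM in whole lung. Its contrast was not called different between bleomycin and saline mice (−1.58, adjusted p = 0.906, edgeR).

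ENSMUSG00000064367 was lower by a similar fold at a far higher level. Epithelium had 60.1, 58.0, 16.2, 2.70, 20.1 and 15.95 CPM in mice 148, 149, 204, 206, 208R and 225, and whole lung had 688, 926, 1922, 523, 716 and 716 CPM. The 2 S135 mice had the highest epithelial values and mouse 206 the lowest. The log2 fold change was −5.37 ± 0.52 (SE, adjusted p = 1.03e-05, edgeR), and in saline mice it was −5.04. The plot of these 4 genes by mouse joins the libraries of each animal.

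**Figure D2:**
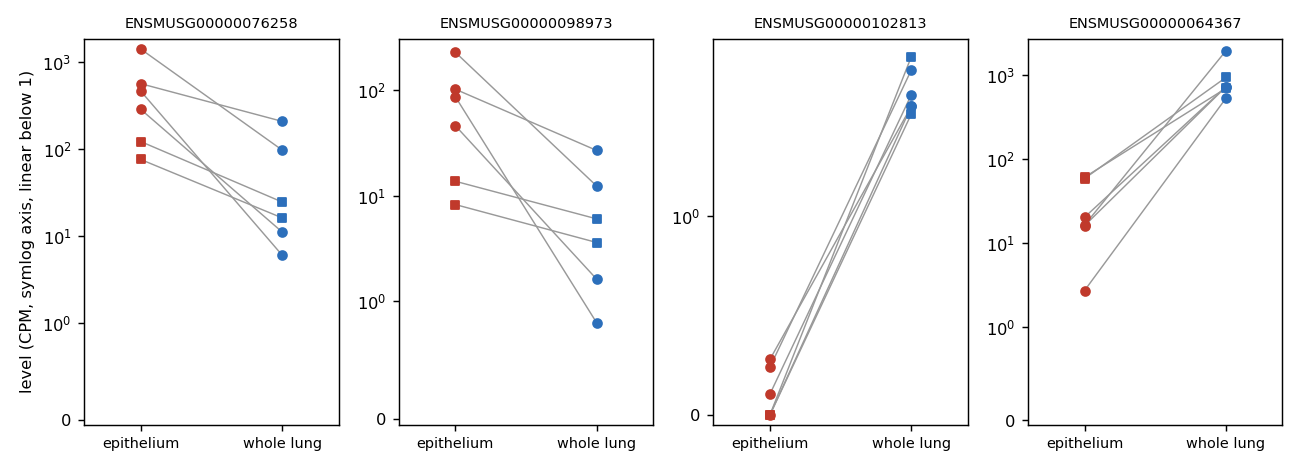
Levels of the first 2 higher and first 2 lower genes in epithelium (red, left) and whole lung (blue, right) of each bleomycin control mouse (CPM, symmetric log axis that is linear below 1). Lines join the libraries of a mouse, squares are S135 and circles S151. Every line falls to the right for ENSMUSG00000076258 and ENSMUSG00000098973 and rises to the right for ENSMUSG00000102813 and ENSMUSG00000064367.

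The contrast held in direction across the individual mice. The sign of the difference was the same in all 6 mice for 3719 of the 4446 higher genes and 4123 of the 4621 lower genes, counts that the calls themselves favour, against 8471 of all 15742 tested genes. For a measure that leaves the mouse out of the calls, genes were called in 5 mice and read in the sixth. Of genes called higher in the other 5, 86.4% (mouse 206) to 99.4% (mouse 204) were positive in the mouse left out. Of genes called lower, 90.5% (mouse 149) to 99.2% (mouse 204) were negative. The median log2 difference of those genes in the left-out mouse ran from 0.87 to 1.03 for higher and from −1.71 to −1.43 for lower genes. The spread between mice was wider for the lower genes, with a median SD of the per-mouse log2 difference of 0.64, than for the higher genes, with 0.36.

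Both batches gave the contrast on their own. Within S135, with 2 mice, 3051 genes were higher and 3400 lower of 15528 tested, and within S151, with 4 mice, 4131 were higher and 5090 lower of 16172. Across 14420 genes tested in both, the log2 fold changes of S135 and S151 correlated at r = 0.78, across genes, which are not independent replicates. Of the genes called higher in S151 and tested in S135, 91.8% of 3970 were positive in S135, and 92.5% of 4616 lower genes were negative. A test of the difference between batches called 20 genes with a higher and 6 with a lower contrast in S151 of 15742 in edgeR, and 2886 genes (18.3%) had an unadjusted p under 0.05.

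Uninjured epithelium showed largely the same contrast. In the saline mice 14885 genes were tested and 8565 (57.5%) called, with 4059 (27.3%) higher and 4506 (30.3%) lower in epithelium. Of 14621 genes tested in both kinds of mice, 3525 were higher in both and 3835 were lower in both, and the log2 fold changes correlated at r = 0.94 (Pearson and Spearman) across genes, with no mouse in common. The 2-fold higher genes of bleomycin and of saline mice shared 1560 members, which is 77.5% of the bleomycin list and 79.4% of the saline list. The 2-fold lower genes shared 2635 members, 83.1% of the bleomycin and 81.8% of the saline list. Opposite calls were found for 10 genes, of which 8 were higher in bleomycin and lower in saline epithelium and 2 the other way round.

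Genes chosen on saline mice alone were then read in the bleomycin mice. Of the 1965 genes (13.2% of those tested there) at least 2-fold higher in saline epithelium, 1948 were tested in bleomycin mice, where 1851 were higher, 0 were lower and 97 were not called, beside 28.2% higher and 29.4% lower over all genes tested there. These genes took 57.5% ± 3.30 of epithelial and 25.1% ± 2.38 of whole lung counts in bleomycin mice (SD, n = 6 each). The gene with the largest share of the S135 libraries (25% and 25.6% of epithelial counts in mice 148 and 149) was among them. Of the 3220 genes (21.6%) at least 2-fold lower in saline epithelium, 3135 were tested, with 2890 lower (29.4% over all genes), 3 higher and 242 not called. They took 3.26% ± 0.62 of epithelial and 22.6% ± 5.21 of whole lung counts. A further 6320 genes were not called in saline mice, and of the 6158 tested in bleomycin mice 840 were higher and 523 lower. A call in 1 kind of mouse and none in the other does not show that they differ, and that difference was tested separately, below.

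The genes most depleted from saline epithelium, 1340 genes (9%) at least 8-fold lower there, were followed as shares of each library. In bleomycin mice they held 0.882%, 0.900%, 0.352%, 0.393%, 0.775% and 0.406% of epithelial counts in mice 148, 149, 204, 206, 208R and 225. They held 14.9%, 16.9%, 9.62%, 7.81%, 8.32% and 9.67% of whole lung counts in the same mice. Every epithelial share was under 1% and every whole lung share over 7%. Mouse 208R had an epithelial share close to those of the S135 mice while its whole lung share was in the range of S151.

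**Figure D3:**
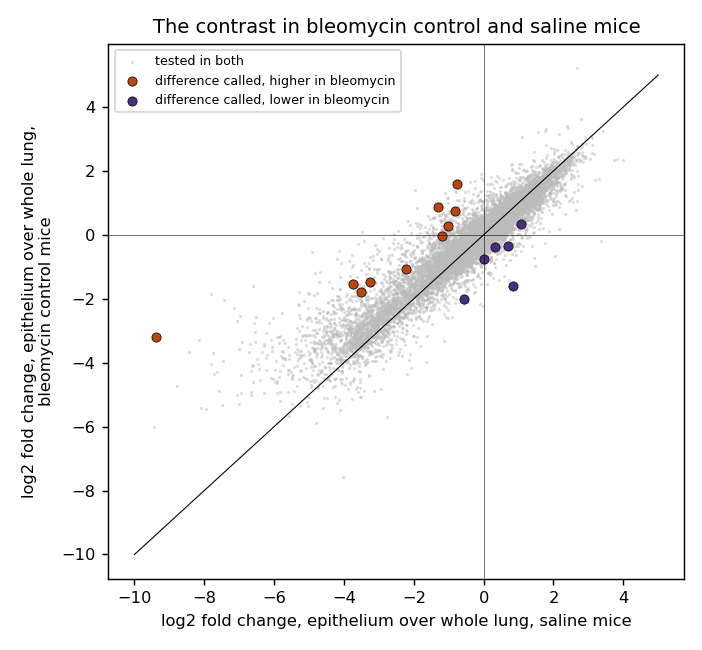
Each grey point is 1 of 14621 genes tested in both kinds of mice, with its log2 fold change, epithelium over whole lung, in bleomycin control mice (vertical) and in saline mice (horizontal). The diagonal marks equal fold changes. Coloured points are genes whose contrast was called different, 10 higher (orange) and 6 lower (purple) in bleomycin mice.

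A similar reading used bleomycin mice that gave no library to the main comparison. In 2 mice of S135 given KIRA8, an inhibitor of the stress sensor IRE1α, and 4 mice of S151 given 3G9, an antibody to the integrin αvβ6, 2173 genes (14.1%) were at least 2-fold higher and 3408 (22%) at least 2-fold lower in epithelium. Of the higher genes 2157 were tested in the bleomycin control mice, with 1932 higher and 0 lower. Of the lower genes 3335 were tested, with 3075 lower and 0 higher. Over all genes tested, 28.2% were higher and 29.4% lower. In the other direction, the 2-fold higher genes of the bleomycin control mice had a positive sign for 98.8% to 99.7% in the 4 mice given 3G9 and for 93.9% to 95.8% in the 2 S135 mice given KIRA8. In batch S061, which entered neither set, the share was 86.1%, 94.2% and 96% in 3 mice given KIRA8, with medians of 0.89 to 1.07, and 92.6% to 95.8% in 3 bleomycin control mice, with medians of 0.92 to 1.09. The 2-fold lower genes had medians of −1.42 to −1.16 in those 6 mice of S061, against −2.57 to −2.22 in the 4 mice given 3G9 and the 2 S135 mice given KIRA8.

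The groups defined in the KIRA8 and 3G9 mice allow bleomycin control and saline mice to be set side by side, as a description without a test, since the groups were chosen after the data were seen. The 2-fold lower genes had a median log2 difference of −2.05 and −2.03 in S135 bleomycin mice 148 and 149, against −2.36, −2.31 and −2.16 in S135 saline mice 146, 152 and 153. In S151 the medians were −2.23, −2.24, −1.78 and −2.27 in bleomycin mice 204, 206, 208R and 225, against −2.42, −2.30 and −2.57 in saline mice 207, 221 and 230. Within each batch every bleomycin mouse was closer to 0 than every saline mouse, and mouse 208R was closest to 0. The ranges of the pooled groups overlapped. The 1097 genes at least 8-fold lower in the KIRA8 and 3G9 mice did not keep this order in S151, where the medians were −3.56, −3.30, −2.64 and −3.66 in bleomycin mice 204, 206, 208R and 225, against −3.50, −3.29 and −3.83 in saline mice 207, 221 and 230. In S135 they were −2.95 and −2.99 in bleomycin mice 148 and 149, against −3.57, −3.53 and −3.10 in saline mice 146, 152 and 153. Gene by gene, 3404 of the 2-fold lower genes were tested for the difference between bleomycin and saline mice. The median difference was 0.24 over them and 0.01 over all 17212 genes tested. Of the 3404 genes, 5 were called higher and 1 lower, beside 0.0581% higher and 0.0349% lower over all 17212.

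The genes 2-fold higher in the KIRA8 and 3G9 mice held 56.5% ± 3.26 of epithelial counts in bleomycin and 64.7% ± 3.94 in saline mice (SD, n = 6 each). In whole lung they held 23.9% ± 2.496 in bleomycin and 29.1% ± 5.75 in saline mice, the last with a highest value of 39.1% in mouse 221. The 2-fold lower genes held 3.25% ± 0.69 of epithelial counts in bleomycin and 2.66% ± 0.70 in saline mice, and 22.9% ± 4.98 of whole lung counts in bleomycin and 23.7% ± 5.23 in saline mice. The epithelial shares of the higher genes in bleomycin mice, 51.96% to 59.6%, lay below those of saline mice, 60.4% to 70.5%, with no overlap. The gene with the most counts moved beside them, with 6.01% to 15.7% of epithelial counts in bleomycin and 15.4% to 28.9% in saline mice, and its part in these shares was not tested.

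**Figure D4:**
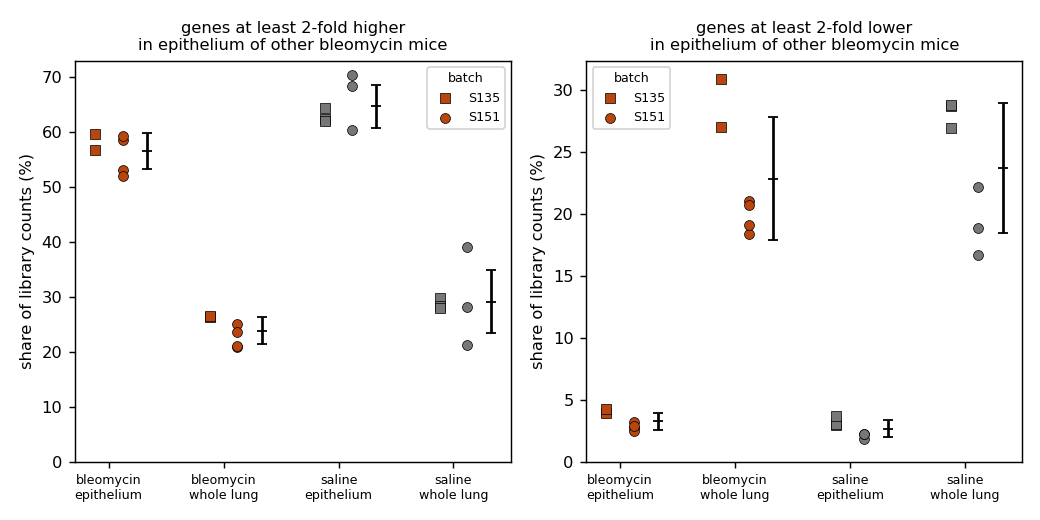
Share of each library's counts (percent) held by genes at least 2-fold higher (left panel) or lower (right panel) in epithelium of the KIRA8 and 3G9 mice. Points are libraries of bleomycin control mice (orange) and saline mice (grey), squares S135 and circles S151, and bars are the mean ± SD (n = 6). The higher genes held 51.96% to 59.6% of epithelial counts in bleomycin mice, below the 60.4% to 70.5% in saline mice.

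Few single genes were called different in contrast between bleomycin control and saline mice, and a gene not called is not shown to be alike. The test of the difference itself, blocked by mouse and with a compartment-by-batch term, called 16 of 17212 genes (0.093%) in edgeR, 10 with a higher contrast (0.0581%) and 6 with a lower contrast (0.0349%) in bleomycin mice. At an unadjusted p under 0.05 there were 1405 genes (8.16%). The count was not stable: it was 137 with DESeq2 and 15 with limma voom, 0 without the mouse as a block and 0 within S151 alone in edgeR (1177 and 1103 genes at an unadjusted p under 0.05). It was 5, 9, 6, 38 and 6 without bleomycin mice 148, 149, 204, 206 and 208R, and 6, 8, 6 and 8 without saline mice 146, 152, 207 and 221. Closer to 16, it was 13 without bleomycin mouse 225, and 18 and 13 without saline mice 153 and 230. DESeq2's size factors gave 13 and a stricter filter on low counts gave 17 in edgeR. For 11 of the 16 genes the per-mouse log2 differences of bleomycin and saline mice did not overlap, which the test that chose them favours. Over all 17212 genes this held for 120 (0.697%).

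All 10 genes with a higher contrast were lower in saline epithelium than in saline whole lung. In bleomycin mice 3 of them were higher in epithelium, 5 were still lower and 2 were not called. Among the 6 with a lower contrast, 3 were lower in bleomycin epithelium and not lower in saline epithelium: 1 was higher in saline epithelium and 2 were not called there. The remaining 3 were lower in both, higher in saline alone, and called in neither.

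ENSMUSG00000030867 changed sides. Bleomycin epithelium had 15.3, 16.4, 18.8, 22.5, 16.3 and 13.1 CPM in mice 148, 149, 204, 206, 208R and 225, and bleomycin whole lung had 10.9, 5.61, 9.46, 11.1, 9.37 and 10.8 CPM. Saline epithelium had 2.10, 2.06, 0.758, 1.003, 0.746 and 2.23 CPM in mice 146, 152, 153, 207, 221 and 230, and saline whole lung had 4.05, 2.28, 2.67, 3.89, 3.21 and 3.67 CPM. On the TMM scale all bleomycin epithelial values were above all bleomycin whole lung values. All saline epithelial values were below all saline whole lung values. The log2 fold change was 0.87 ± 0.18 in bleomycin mice (SE, adjusted p = 0.0021, edgeR) and −1.32 ± 0.47 in saline mice (SE, adjusted p = 0.0304, edgeR). Scaling to library totals alone moved the median of all tested genes by −0.64 (log2) in bleomycin mice. The contrast of this gene in bleomycin mice was not read under that scaling. The difference between bleomycin and saline mice was 2.16 ± 0.37 (SE, adjusted p = 0.0383, edgeR) and lost its call without bleomycin mouse 148, 149, 204 or 208R or saline mouse 146, 207 or 221 (adjusted p = 0.057 to 0.146), and within either batch alone. Nor was it called by limma voom (adjusted p = 0.0671) or without the mouse as a block (adjusted p = 0.062, edgeR).

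ENSMUSG00000024672 had the largest estimate, and saline epithelium had 0 counts of it in all 6 libraries. Bleomycin epithelium had 27, 12, 24, 14, 73 and 35 counts in mice 148, 149, 204, 206, 208R and 225, which is 0.651 to 2.54 CPM. Whole lung had 6.79 to 16.1 CPM in bleomycin and 1.65 to 5.41 CPM in saline mice. Summed over libraries, it was 8.94-fold lower in bleomycin epithelium than in whole lung, and at least 99.7-fold lower in saline epithelium against a floor of 3 counts over the group. The fitted difference of 6.46 ± 1.01 (SE, adjusted p = 0.0433, edgeR) depends on how a count of 0 is treated, with 5.06 by DESeq2 and 3.62 by limma voom, and its call was kept only without bleomycin mouse 206 or saline mouse 153 among the 12 fits that left out 1 mouse (adjusted p = 0.0543 to 0.143 in the other 10). Within S135 and S151 alone the adjusted p was 0.24 and 0.283 in edgeR, and without the mouse as a block it was 0.062.

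ENSMUSG00000002985 had a lower contrast in bleomycin mice. Bleomycin epithelium had 190, 287, 91.2, 116, 292 and 175 CPM in mice 148, 149, 204, 206, 208R and 225, and bleomycin whole lung had 540, 1498, 543, 437, 767 and 966 CPM. Saline epithelium had 231, 236, 283, 254, 238 and 613 CPM in mice 146, 152, 153, 207, 221 and 230, and saline whole lung had 398, 397, 458, 363, 296 and 583 CPM. The per-mouse log2 difference was −2.57 to −1.39 in bleomycin and −0.79 to 0.07 in saline mice, with no overlap. The difference of −1.58 ± 0.22 (SE, adjusted p = 0.00508, edgeR) stayed called with each of the 12 mice left out, but not within S135 (adjusted p = 0.0934), within S151 (adjusted p = 0.131) or without the mouse as a block (adjusted p = 0.308).

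ENSMUSG00000019987 varied with batch as well as with exposure. Bleomycin epithelium had 9.00 and 25.96 CPM in S135 mice 148 and 149, and 0.511 to 6.32 CPM in the 4 S151 mice, against 28.6 and 110 CPM and 3.00 to 22.3 CPM in whole lung. Saline epithelium had 6.82 to 11.5 CPM in S135 and 0.693 to 2.72 CPM in S151, against 3.24 to 3.89 CPM and 0.942 to 1.71 CPM in whole lung. Epithelium was below whole lung in all 6 bleomycin mice and above it in 5 of the 6 saline mice, the exception being mouse 221. The difference of −2.49 ± 0.45 (SE, adjusted p = 0.0433, edgeR) stayed called without bleomycin mouse 206 or 208R or saline mouse 221, and lost its call without any 1 of the other 9 mice (adjusted p = 0.061 to 0.225). In edgeR the adjusted p of the difference was 0.00214 within S135, 0.7 within S151 and 0.382 without the mouse as a block. Of the batches, S135 alone gave the call. The plot of the 16 genes gives the log2 difference of every mouse.

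**Figure D5:**
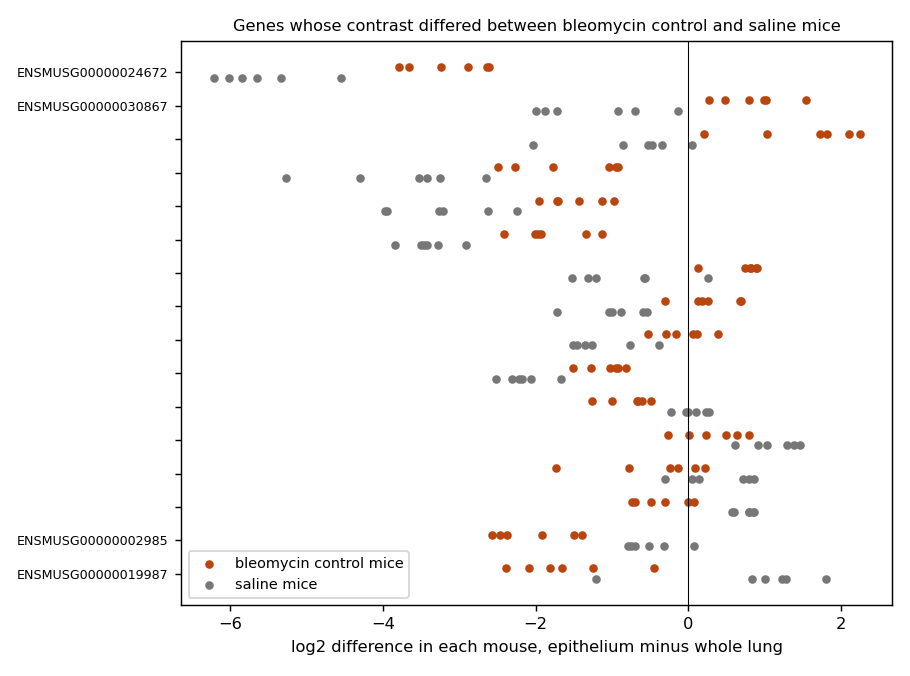
Log2 difference, epithelium minus whole lung, in each mouse for the 16 genes whose contrast was called different, with bleomycin control mice (orange) above saline mice (grey) for each gene. The first 10 genes from the top have a higher and the last 6 a lower contrast in bleomycin mice, and the 4 genes described in the text carry their IDs. The points of bleomycin and saline mice do not overlap for 11 of the 16 genes, which were chosen for this difference, and for 0.697% of all tested genes.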

How the data were processed

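The values analysed are read counts as the authors deposited them, not normalized, in 1 table with an Ensembl gene per line. STAR 2.5.2b and build GRCm38 were used, per the submitters' processing notes, and neither the counting program nor its use of strand is given in the sources used here. Columns were assigned by mouse number and compartment letter, and 0 columns went unused. Of the 42548 genes, 10826 had no count in the 48 libraries.

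The members and gene lists were chosen with earlier results of these data known. Counts were fitted with edgeR 4.0.16 in R 4.3.3 (TMM, filterByExpr, robust quasi-likelihood, adjusted p under 0.05), with the mouse as a block. Libraries were paired by the labelled mouse number. The deviations of a mouse's 2 libraries from their batch means correlated across genes at r = 0.10 to 0.53 in the 6 mice. With 2 mice in S135 these deviations mirror each other, so mice 148 and 149 share 1 value, r = 0.21. Levels of the 2 compartments correlated at r = 0.85 to 0.89 within a mouse. Between mice of a batch the range was r = 0.81 to 0.89, so these values do not set the labelled pairs apart. Scripts were tested on simulated data. Per-mouse log2 values used a prior count of 2. The SE given with an edgeR fold is its absolute log2 value divided by the square root of the quasi-likelihood F statistic. With the mouse as a block, p-values rest on how far the epithelium minus whole lung difference varies between these animals, beside counting error.

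Named genes were the 12 with the largest fold per direction (6 for the difference) among those called, with a mean of at least 5 CPM in the higher group and, for the main comparison, the same sign in all 6 mice. Since IDs could not be paired with symbols, at most 2 IDs per direction are printed, and 35 symbol lists and the promoter sequences were not used here. Alternatives were DESeq2 1.42.0, voom in limma 3.58.1, other scaling and filters, other samples, no block, and single batches.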

Additional observations from a re-analysis of the deposited data

Results flagged for a closer look

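In 22 sets of per-mouse values tested for a single sample far from the rest, 3 had one, where chance alone gives about 1 in 20. For ENSMUSG00000019987, saline mouse 221 had a log2 difference, epithelium minus whole lung, of −1.22, against 0.84 to 1.81 in the other 5 saline mice. In bleomycin mouse 149, the genes nearly limited to batch S061 held 0.0530% of epithelial counts, against 0.00136% to 0.00563% in the other 5 bleomycin mice, and 0.846% of whole lung counts, against 0.00297% to 0.0264%. Of these 146 genes 33 were tested, with 0 higher and 11 lower in epithelium by edgeR, beside 28.2% higher and 29.4% lower over all genes.

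The compartment contrast was called different between bleomycin and saline mice for 16 genes by a test of the difference itself in edgeR. The 4 described singly had differences (log2, bleomycin minus saline) of 6.46 for ENSMUSG00000024672 (5.06 by DESeq2 and 3.62 by limma voom, with 0 counts in saline epithelium), 2.16 for ENSMUSG00000030867, −2.49 for ENSMUSG00000019987 and −1.58 for ENSMUSG00000002985.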

How the results depend on the processing

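In the bleomycin mice the count of called genes stayed within 1.5 times of 9067 under each alternative except a test against a fold of 2, which called 3101 (943 higher, 2158 lower). Scaling to library totals alone gave 1520 higher and 7999 lower, and 20 of the TMM calls were then called in the other direction, against 0 under the other alternatives. Leaving out 1 mouse gave 7906 to 9104 calls. Without the replicate block (unpaired), 4511 genes were higher and 4564 lower, and 8725 of the 9067 calls remained. Leaving out the 10 genes with the most counts, chosen after seeing the data, gave 4150 and 4879, and leaving out the batch-limited genes 4451 and 4617. The difference between bleomycin and saline mice was 16 genes and was not stable: DESeq2 gave 137 (98 higher, 39 lower), no filter 49 (31 and 18), no replicate block 0 (0 and 0) and S151 alone 0 (0 and 0) in edgeR, with 1177 and 1103 genes at an unadjusted p under 0.05. S135 alone gave 12, of which 2 were among the 16. Leaving out 1 mouse gave 5 to 38 genes, 3 to 18 higher and 2 to 20 lower. It gave 5, 9, 6, 38 and 6 without bleomycin mice 148, 149, 204, 206 and 208R, and 6, 8, 6 and 8 without saline mice 146, 152, 207 and 221. Closer to 16 were 13 genes without bleomycin mouse 225, and 18 and 13 without saline mice 153 and 230. The cause was not tested. No described gene changed sign. The alternative without immunoglobulin, haemoglobin and mitochondrial genes was not run, because IDs could not be paired with names. Depth limits the calls under 1 CPM.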
